A study of Homo sapiens with 9 samples.

Results

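The transcripts described here are the 10 mitochondrially encoded messages for subunits of respiratory complexes I, III and IV: MT-ND1 to MT-ND6 of complex I, MT-CYB of complex III, and MT-CO1 to MT-CO3 of complex IV. They were chosen by symbol, as the rows of a pair of deposited gene count tables that bear these names. All 10 were found, among 18293 genes present in both tables, and all 10 passed the filter on low counts. The samples were HMEC-1 cells, an immortalised human dermal microvascular endothelial line, grown in MCDB131 medium with 5.5 mM glucose. Control cells received the solvent DMSO. The others received AMI-1 at 100 µM or AMI-5 at 100 µM, both dissolved in DMSO and both presented by the study as methyltransferase inhibitors. Exposure lasted 16 h in every group, and 3 libraries were sequenced per group from poly-A selected RNA. All groups are the same cell line in the same glucose, so nothing here compares cell types or glucose levels.

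The human mitochondrial genome is a small circle present in many copies per cell. A single RNA polymerase, POLRMT, transcribes each strand as a long precursor with the factors TFAM and TFB2M. The tRNAs that lie between most of the other genes are then cut out, which frees the mRNAs and rRNAs. Because the genes of a strand start as a shared precursor, differences between mature mRNAs arise in large part from processing and stability, in which the LRPPRC and SLIRP proteins take part. The products are core, membrane-embedded subunits of the enzymes that carry electrons to oxygen and pump protons. They assemble with many nuclear-encoded partners. Mitochondrial mRNAs carry short poly-A tails, with MT-ND6, the only mRNA of the light strand, as the known exception. Selection on poly-A therefore bears on how well each is captured, and the values below are levels in a poly-A library.

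Total counts over the shared genes ran from 14451343 to 24691456 per library, and the control columns of both tables were identical. Libraries with the same replicate number deviated together from their group means: the correlation over genes was 0.43 to 0.87 for the 9 pairs of the same number and -0.80 to 0.20 for different numbers. The library names in the labels begin with the same code for each replicate number, and the labels do not say what it stands for or whether the libraries come from separate cultures. The p-values below therefore measure only the spread between these samples. Of 7 endothelial markers, 6 were in both tables, led by ENG and CDH5, with PECAM1 not among the shared genes. Their summed level was 631 to 863 CPM in control, 678 to 816 after AMI-1 and 545 to 704 after AMI-5, where CPM is a gene's count scaled to the same total in each library. With the replicate number as a block in edgeR's fit, ENG (-0.36, log2) and CDH5 (-0.28) fell and ESAM (1.25) rose with AMI-5. In that fit 3.42% of all genes rose and 7.45% fell. Without the block 0 of the 6 passed an adjusted p of 0.05, by edgeR or DESeq2. In the blocked fits that left out 1 library, ENG lost the call in 3 of 9 and CDH5 in 4. Without AMI-5 replicate 1 their edgeR adjusted p was 0.0864 and 0.0820, and without control replicate 3 that of CDH5 was 0.113. ESAM kept its call in all 9 but had the lowest mean CPM of the 6 in every group. Fibroblast and mural markers summed to 397 to 514 CPM in control, 396 to 481 after AMI-1 and 389 to 549 after AMI-5, mostly TAGLN, and DCN was not among the shared genes. Epithelial keratins KRT8 and KRT18 were present at 207 to 395 CPM in sum while EPCAM, CDH1 and KRT5 were not among the shared genes, and of the blood markers only CD14 was, at 1.57 to 2.96 CPM. The part of these shifts in the results was not tested.

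Together the 10 transcripts took 1.96%, 2.79% and 2.00% of all counts in control libraries 1 to 3. In AMI-1 cells they took 1.99%, 3.11% and 2.22%, and in AMI-5 cells 2.24%, 2.99% and 2.14%. Replicate 2 stood highest in every group, and the groups overlapped. The mean share was 2.25% ± 0.47 (SD, n = 3) in control, 2.44% ± 0.59 after AMI-1 and 2.46% ± 0.47 after AMI-5. The difference from control was 0.19 percentage points for AMI-1 (two-sided exact permutation p = 0.6) and 0.20 for AMI-5 (p = 0.5, same test). Between the compounds it was 0.015 points (exact permutation p = 0.9), and 0.1 is the smallest p that 3 against 3 libraries allow. Leaving out 1 library makes the replicate numbers unequal between the groups. The unpaired differences then depended strongly on replicate 2, the highest in each group. Without AMI-1 replicate 2 that of AMI-1 was -0.146 points, and without AMI-5 replicate 2 that of AMI-5 was -0.062. Without control replicate 2 they were 0.459 and 0.475, without control replicate 1 they were 0.045 and 0.061, and without control replicate 3 they were 0.065 and 0.080. Without replicates 1 or 3 of the treated group they were 0.415 and 0.301 for AMI-1 and 0.313 and 0.364 for AMI-5. Within replicate numbers the share was higher than control in 3 of 3 pairs with each compound, by 0.029, 0.32 and 0.22 points for AMI-1 and by 0.28, 0.20 and 0.14 points for AMI-5. An exact two-sided sign-flip test over 3 pairs gave p = 0.25 for each, the smallest it allows. The shares rest on library totals alone. With that scaling, in a fit without the block, the median log2 change of all genes was itself 0.053 for AMI-5 and 0.014 for AMI-1. The medians of the 10 were 0.126 and 0.120. The values are shares of all counts, so more RNA of the 10 and less of the other RNA cannot be told apart.

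**Figure D1:**
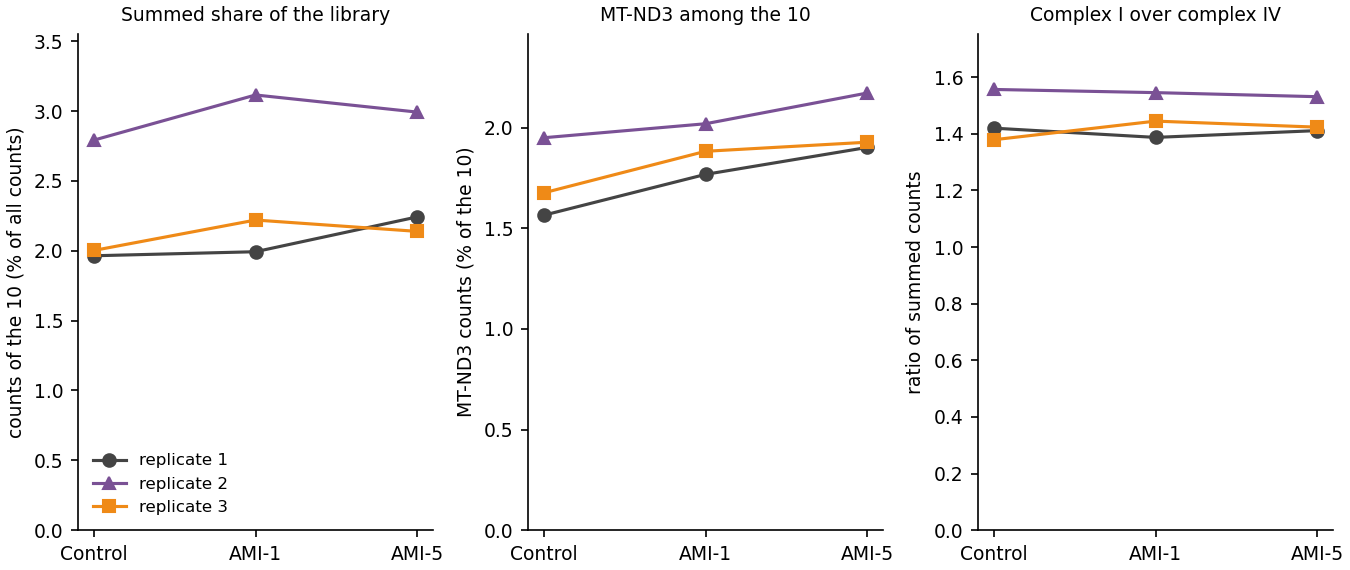
Summed counts of the 10 transcripts as a percent of all counts, MT-ND3 as a percent of the 10, and the ratio of summed complex I to complex IV counts, each against treatment group, with a line for each replicate number and all axes starting at 0. Replicate 2 lies highest in each panel, with shares between 2.79% and 3.11% in the first.

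The replicate number accounted for 82.0% to 97.0% of the sum of squares of each transcript's level over the 9 libraries, and the treatment for 2.01% to 15.2%. All 10 were highest in replicate 2 of each of the 3 groups. In control the level in replicate 2 was 1.22 times (MT-ND1) to 1.85 times (MT-ND6) the mean of the other two. The makeup of the 10 moved with the number too: MT-ND6 made up 4.04% of them in control replicate 2 beside 3.09% and 3.07% in the others, and MT-ND1 6.40% beside 7.43% and 7.36%.

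Complex I takes electrons from NADH, and its 6 members here form much of the proton-pumping membrane arm. MT-ND1, next to the quinone site, stood at 1459, 1788 and 1474 CPM in control libraries 1 to 3, at 1367, 1999.6 and 1490.2 in AMI-1 cells, and at 1587, 1892 and 1461 in AMI-5 cells. MT-ND2, an antiporter-like subunit, stood at 771, 1235 and 819 CPM in control, at 760.1, 1366 and 976 in AMI-1 cells, and at 909, 1382 and 921 in AMI-5 cells. For both genes the 3 groups overlapped. MT-ND1 was higher than its same-numbered control in 2 of 3 pairs with each compound, and MT-ND2 in 2 of 3 with AMI-1 and 3 of 3 with AMI-5.

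MT-ND4, an antiporter-like subunit, had 4084, 6157 and 4125 CPM in control, 4169, 6818 and 4859 in AMI-1 cells, and 4668, 6396 and 4494 in AMI-5 cells. Its row overlaps MT-ND4L by 7 bases, since both are read from a shared message. MT-ND5, the largest of the antiporter-like subunits, had 2554, 3824 and 2516 CPM in control, 2547, 4277 and 2737 in AMI-1 cells, and 2838, 4145 and 2670.3 in AMI-5 cells. The pairs of MT-ND4 were all higher than control with either compound, and those of MT-ND5 in 2 of 3 with AMI-1 and 3 of 3 with AMI-5. MT-ND6 had 606, 1127 and 616 CPM in control, 629, 1254 and 699 in AMI-1 cells, and 659, 1210.0 and 717 in AMI-5 cells. Its strand setting in the counting is not given in the sources used here, so light-strand reads of MT-ND6 and heavy-strand precursor reads over the same place cannot be told apart.

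MT-ND3 is the shortest of the 10 and encodes a small subunit with a loop near the quinone site. It is shown because it is the transcript with the highest fitted change and the lowest content of G and C among the 10. Its message is 346 bases long, and bases 226 to 346 are given here from GENCODE release 29 on GRCh38, 5′ to 3′. They hold the last 40 of its 115 whole codons, and the capital marks the base left after them, a T that the poly-A tail is known to complete to a stop codon. The tRNA genes on either side follow, MT-TG before and MT-TR after it, all in lower case, because their rows are taken up again with the rest of the genome.
MT-ND3 end: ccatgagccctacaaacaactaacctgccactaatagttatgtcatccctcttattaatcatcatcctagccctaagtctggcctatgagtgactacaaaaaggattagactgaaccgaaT
MT-TG: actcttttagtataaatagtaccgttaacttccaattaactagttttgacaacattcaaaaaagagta
MT-TR: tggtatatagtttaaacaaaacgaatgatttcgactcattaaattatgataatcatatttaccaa

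MT-ND3 had 308, 545 and 336 CPM in control, 352, 629 and 418 in AMI-1 cells, and 426, 650.2 and 412 in AMI-5 cells. Each treated library lay above its same-numbered control, while control replicate 2 lay above replicates 1 and 3 of both treated groups, so the groups overlapped. The differences in log2 CPM were 0.20, 0.21 and 0.32 for AMI-1 and 0.47, 0.26 and 0.30 for AMI-5. As a share of the 10 transcripts, a measure that needs no library scaling, MT-ND3 made up 1.57%, 1.95% and 1.68% in control. The share was 1.77%, 2.02% and 1.88% after AMI-1, and 1.90%, 2.17% and 1.93% after AMI-5. It was higher than control in 3 of 3 pairs with either compound, and the groups overlapped (two-sided exact permutation p = 0.3 for each, 1 after Benjamini-Hochberg adjustment over the shares of the 10).

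Complex III passes electrons from ubiquinol to cytochrome c, and MT-CYB is its haem-bearing cytochrome b. It had 2969, 3815 and 2968 CPM in control, 3023, 4231 and 3280.4 in AMI-1 cells, and 3477, 4011 and 3212 in AMI-5 cells. All 3 pairs were higher than control with each compound, and control replicate 2 was above 2 of the 3 libraries of each treated group.

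Complex IV reduces oxygen. MT-CO1 carries its catalytic haems and a copper, MT-CO2 receives electrons from cytochrome c, and MT-CO3 is a structural core subunit. MT-CO1 had 2573, 3864 and 2659 CPM in control, 2679, 4269 and 2878 in AMI-1 cells, and 2909.8, 4311 and 2828 in AMI-5 cells. MT-CO2 had 2210.2, 2886 and 2340.0 CPM in control, 2213, 3209.9 and 2545 in AMI-1 cells, and 2531, 3130.4 and 2392 in AMI-5 cells. MT-CO3 had 2105, 2678 and 2169 CPM in control, 2189.7, 3095 and 2314 in AMI-1 cells, and 2414, 2796 and 2279 in AMI-5 cells. For each of them the 3 pairs were higher than control with both compounds, and the groups overlapped. The ratio of summed complex I to summed complex IV counts was 1.45 ± 0.093 (SD, n = 3) in control, 1.46 ± 0.080 after AMI-1 and 1.46 ± 0.066 after AMI-5. Exact permutation tests of its logarithm gave p = 0.9 for each compound against control and p = 1 between them.

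**Figure D2:**
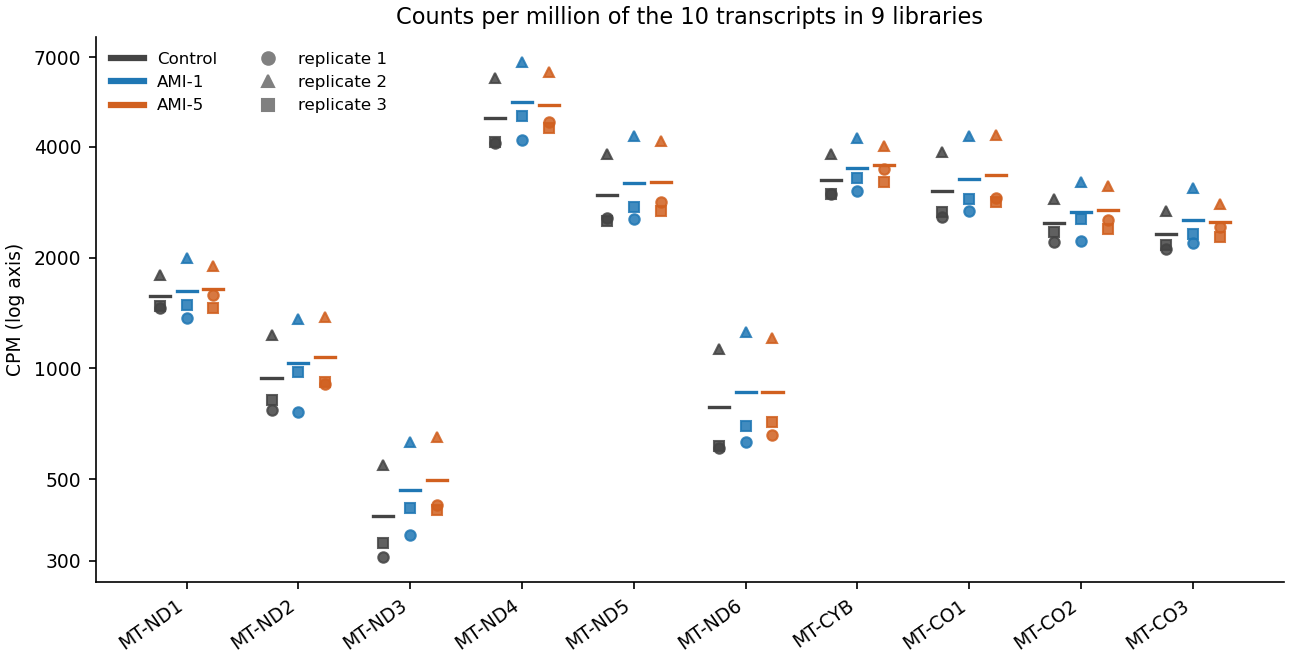
CPM on a log axis for each of the 10 transcripts, with colour for the treatment group, marker shape for the replicate number and a bar at each group's mean. Replicate 2, the triangle, is the highest point in every group, and the groups overlap for every transcript.

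Levels can be set against each other only per length. In control, MT-CO2 stood highest at 3624 ± 524 CPM per kilobase (SD, n = 3), followed by MT-ND4 at 3475 ± 860, MT-CO3 at 2956 ± 400 and MT-CYB at 2849 ± 428. MT-CO1 came next at 1966 ± 468 CPM per kilobase, then MT-ND1 at 1646 ± 194, MT-ND5 at 1636 ± 411 and MT-ND6 at 1491 ± 568. MT-ND3 stood at 1144 ± 374 and MT-ND2 lowest at 904 ± 245 CPM per kilobase. Of the 9 neighbouring steps in this order only that from MT-CYB to MT-CO1 separated the control libraries, while at the other 8 their ranges overlapped. Within libraries the order was steadier. MT-CO2 over MT-ND4, MT-ND1 over MT-ND5 and MT-ND5 over MT-ND6 each held in 6 of 9 libraries, and each of the other steps held in 9 of 9. The order of the group means was the same with AMI-1 and with AMI-5, except that MT-ND5 and MT-ND1 changed places.

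The comparison of AMI-1 with control asks what this inhibitor does to these transcripts. In edgeR's quasi-likelihood fit of all 9 libraries without the replicate number, 0 of the 10 passed an adjusted p of 0.05, and 0 had an unadjusted p under 0.05. Over all genes the share called was 0% (0 of 18284, with 188 at an unadjusted p under 0.05). DESeq2 called 0 of the 10 and 3 genes in all. The 10 fitted log2 fold changes were all above 0, from 0.02 ± 0.16 (SE) for MT-ND1 to 0.22 ± 0.29 for MT-ND3. Their median was 0.10, beside -0.005 over all genes tested. Without AMI-1 replicate 2, however, 0 of the 10 lay above 0 (median -0.116), and without control replicate 1 or control replicate 3 8 and 7 did (medians 0.015 and 0.023). Leaving out control replicate 2 put the median at 0.297, and leaving out AMI-1 replicates 1 or 3 put it at 0.218 or 0.188. By CPM, 7 of the 10 were higher than control in 3 of 3 pairs, where 17.5% of all genes were. The 3 others, MT-ND1, MT-ND2 and MT-ND5, were higher in 2 of 3. For none of the 10 did the groups separate, against 2.33% of all genes with every AMI-1 library above control and 1.59% with every one below.

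With the replicate number as a block, the estimates changed little and the errors shrank. Again 0 of the 10 passed for AMI-1, where 0.421% of all genes did (0.241% upward and 0.18% downward), and 3 had an unadjusted p under 0.05: MT-ND3, MT-ND4 and MT-ND6. MT-ND3 stood at 0.22 ± 0.06 (log2, SE; edgeR adjusted p = 0.107), MT-ND4 at 0.12 ± 0.05 (adjusted p = 0.451) and MT-ND6 at 0.11 ± 0.05 (adjusted p = 0.460). MT-ND1 was the lowest at 0.01 ± 0.06, with an interval from -0.11 to 0.13. The number above 0 was 9 when control replicate 2 or AMI-1 replicate 2 was left out, and 10 in the 7 other blocked fits that left out 1 library, with medians from 0.056 to 0.146. A further correction for the G and C content of each gene brought MT-ND3 to 0.17 ± 0.04 and past the threshold (adjusted p = 0.00932), as the only one of the 10, where 3.13% of all genes passed (1.24% upward and 1.89% downward). Without AMI-5 replicate 3, which is in neither of the groups compared here, MT-ND3 also passed with the block alone (0.23 ± 0.05, adjusted p = 0.0331).

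For AMI-5 against control the fit without the block called 0 of the 10, again with 0% of all genes called (494 of 18284 at an unadjusted p under 0.05) and 0 of the 10 at an unadjusted p under 0.05. DESeq2 called 0 of the 10 and 20 genes in all. All 10 fitted log2 changes were above 0, from 0.01 ± 0.16 for MT-ND1 to 0.27 ± 0.29 for MT-ND3, with a median of 0.07 beside -0.006 over all genes. Without AMI-5 replicate 2 only 1 of the 10 lay above 0 (median -0.095), without control replicate 3 only 4 did (median -0.003), and without control replicate 1 only 6 did (median 0.005). Leaving out control replicate 2 put the median at 0.270, and leaving out AMI-5 replicates 1 or 3 put it at 0.130 or 0.174. By CPM, 9 of the 10 were higher than control in 3 of 3 pairs, with 34.7% of all genes, and MT-ND1 in 2 of 3. None of the 10 had groups that separated, against 6.05% of all genes above and 1.79% below control.

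With the block, MT-ND3 rose with AMI-5, by 0.28 ± 0.06 on the log2 scale (95% interval 0.17 to 0.40; edgeR adjusted p = 0.00521), or 21.7%. It was the only one of the 10 to pass, where 10.9% of all genes passed, 3.42% upward and 7.45% downward. The call was lost without control replicate 1 (0.28 ± 0.07, adjusted p = 0.0568), without control replicate 3 (0.27 ± 0.07, adjusted p = 0.0706) and without AMI-5 replicate 1 (0.21 ± 0.06, adjusted p = 0.0820). It held in the 6 other fits that left out 1 library, and with the correction for G and C content at a smaller value (0.18 ± 0.04, adjusted p = 0.00208), where 13.2% of all genes passed (5.17% upward and 8% downward). The other 9 stood between 0.004 ± 0.06 for MT-ND1 and 0.13 ± 0.06 for MT-ND2 (edgeR adjusted p = 0.148, or 0.0237 and past the threshold without AMI-1 replicate 3). The intervals of MT-CO1, MT-CO2, MT-CO3 and MT-CYB ran from -0.06 to 0.19 at their widest, so larger changes of these 4 than that lie outside them. In the blocked fits that left out 1 library, 8 of the 10 lay above 0 without AMI-5 replicate 1 (median 0.023), 9 without control replicate 2 and 10 in the 7 others. The count of all genes called ran from 172 without AMI-5 replicate 1 to 4232 without AMI-1 replicate 3.

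**Figure D3:**
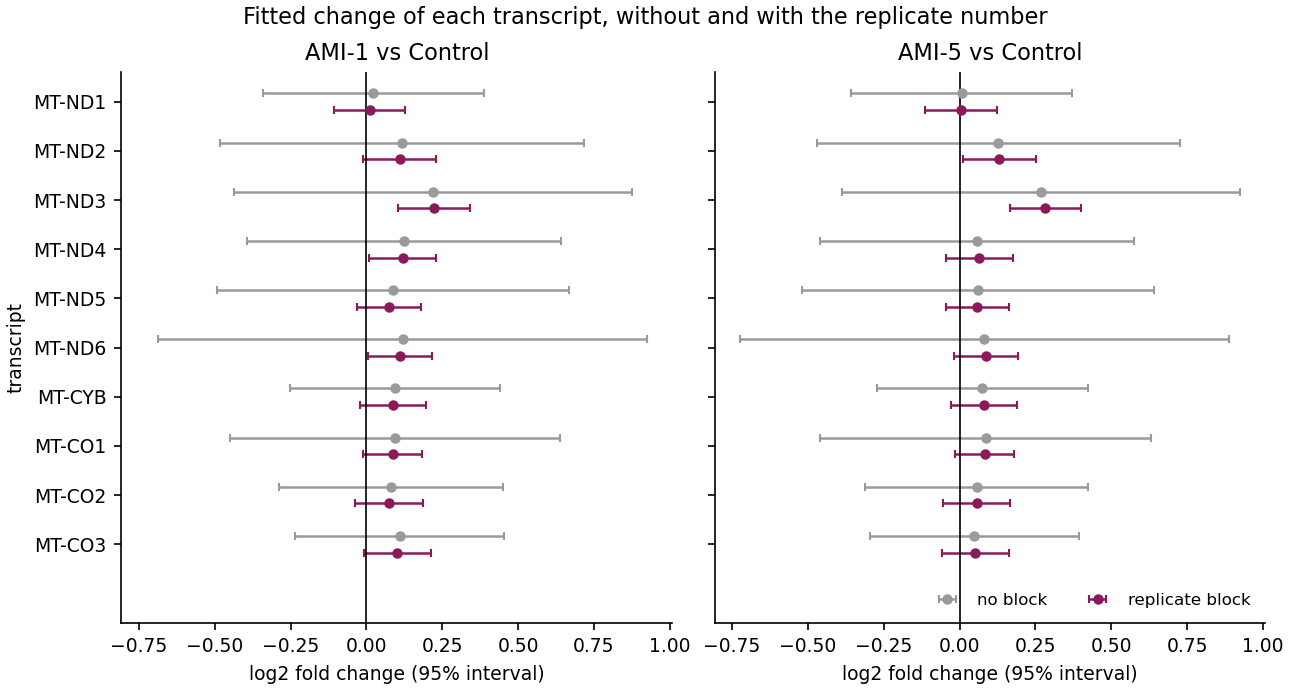
Fitted log2 fold change of each transcript with its 95% interval, for AMI-1 and AMI-5 against control, in grey without and in purple with the replicate number in the fit. With all 9 libraries every point lies above 0, and MT-ND3 lies farthest to the right in both panels, at 0.22 and 0.28 with the block.

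AMI-5 was compared with AMI-1 at the same dose and time. Of the 10, 0 passed without the block (0 of 10 at an unadjusted p under 0.05, 0% of all genes called, 483 of 18284 at an unadjusted p under 0.05) and 0 with it (0 of 10 at an unadjusted p under 0.05), where 5.01% of all genes passed (1.61% upward and 3.4% downward). DESeq2 called 0 of the 10 and 36 genes in all. With the block the differences ran from -0.05 ± 0.05 for MT-ND4, with an interval from -0.17 to 0.06, to 0.06 ± 0.06 for MT-ND3, with an interval from -0.06 to 0.18. By CPM 0 of the 10 were higher with AMI-5 in 3 of 3 pairs, against 22.3% of all genes, and for none did the groups separate, against 5.61% of all genes above and 2.23% below. With the correction for G and C content 0 of the 10 passed (11.1% of all genes, 4.78% upward and 6.37% downward), and MT-ND4 alone had an unadjusted p under 0.05 (edgeR adjusted p = 0.176). All 10 were higher with AMI-5 in the pair numbered 1, 3 of 10 in the pair numbered 2 and 1 of 10 in the pair numbered 3. With library totals alone as the scaling, 8 of the 10 were above 0 in place of 2, and the median of all genes moved from -0.004 to 0.035. Both comparisons with control share the control libraries, so their values side by side are not independent.

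Base composition moved with these values. The 10 transcripts run from 40.2% G and C in MT-ND3 to 47.7% in MT-ND1, the transcripts with the highest and the lowest fitted change for both compounds. Across the 10 genes, which are not independent replicates and share their libraries, the blocked change and the G and C content had r = -0.87 (Spearman's rho = -0.73) for AMI-1 and r = -0.87 (rho = -0.81) for AMI-5. Without MT-ND3 the values of r were -0.72 and -0.75. The relation was weaker over the 31 mitochondrial rows described below, which run from 23.1% to 48.6% G and C. There r was -0.19 (rho = -0.35) for AMI-1 and -0.55 (rho = -0.52) for AMI-5. After the correction for G and C content fitted over all genes, r was -0.76 and -0.69 over the 10, and -0.47 and -0.14 without MT-ND3. The median of the 10 went from 0.096 to 0.085 for AMI-1 and from 0.072 to 0.038 for AMI-5 with this correction. MT-ND3 is also the shortest of the 10. The correlation of the change with log2 length was -0.57 and -0.60 over the 10, and -0.06 and 0.02 without MT-ND3.

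**Figure D4:**
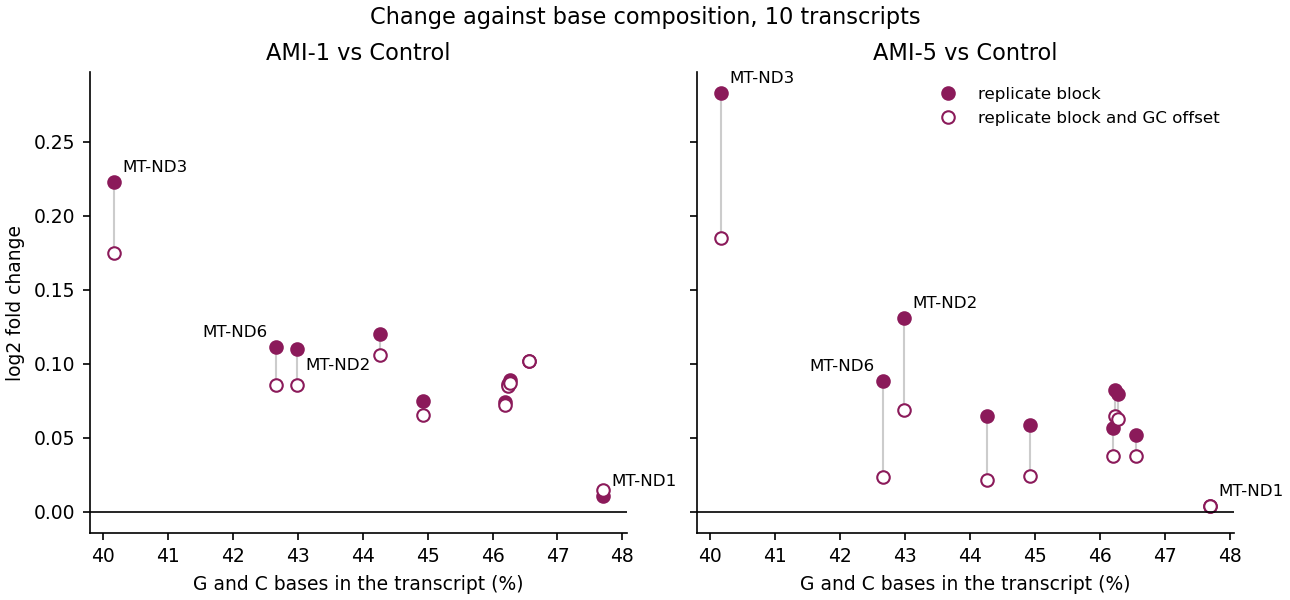
Blocked log2 fold change of the 10 transcripts against their G and C content, before (filled) and after (open) the correction for that content, for each compound against control. MT-ND3, at 40.2%, lies highest and MT-ND1, at 47.7%, lowest in both panels.

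The rest of the mitochondrial genome was read from the same tables. Of its 37 annotated genes, 31 were in both tables: 13 mRNA genes, 2 rRNA genes and 16 of 22 tRNA genes. Of these, 19 bear clone names in the files and were identified by gene identifier. The row whose symbol reads MT-ATP8 carries the identifier of MTATP8P2, a copy on chromosome 2, and the mitochondrial gene of that name stands under a clone name.

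The other 5 long genes are MT-ND4L of complex I, MT-ATP6 and MT-ATP8 of the ATP synthase, and the rRNAs MT-RNR1 and MT-RNR2 of the mitochondrial ribosome. All 5 lay above 0 in both comparisons with control, with a blocked median of 0.20 for AMI-1 and 0.17 for AMI-5. With the block, 2 of 5 rose with AMI-5, where 3.42% of all genes rose. They were MT-ATP6 by 0.20 ± 0.06 (edgeR adjusted p = 0.0301) and MT-RNR2 by 0.19 ± 0.06 (adjusted p = 0.0421). Both calls were lost in 5 of the 9 fits that left out 1 library, with adjusted p up to 0.297 without control replicate 3 for MT-ATP6 and up to 0.302 without AMI-5 replicate 1 for MT-RNR2. With the correction for G and C content MT-ATP6 passed for AMI-5 (0.16, edgeR adjusted p = 0.0170) and MT-RNR2 did not (0.13, adjusted p = 0.0635). There 5.17% of all genes rose. With AMI-1 and the block 0 of 5 passed, where 0.421% of all genes did, and all 5 had an unadjusted p under 0.05. After the correction for G and C content 3 rose, where 1.24% of all genes did. They were MT-ATP6 (0.19, adjusted p = 0.0162), MT-RNR2 (0.19, adjusted p = 0.0202) and MT-RNR1 (0.21, adjusted p = 0.0302). Without the block 0 of 5 passed with either compound, with edgeR or DESeq2, and 0 had an unadjusted p under 0.05.

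The rRNA rows together took 0.457%, 0.531% and 0.493% of counts in control, 0.531%, 0.659% and 0.552% after AMI-1, and 0.604%, 0.660% and 0.504% after AMI-5. The AMI-1 libraries lay above all control libraries by a narrow margin at the boundary (exact permutation p = 0.1, the smallest possible), and AMI-5 overlapped control (exact permutation p = 0.2). In contrast to all 10 mRNAs described above, MT-RNR1 was lowest in replicate 2, at 496, 316 and 485 CPM in control. The other 30 of the 31 mitochondrial rows were highest in replicate 2 of every group.

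Among the 16 tRNA rows, 6 rose with AMI-5 with the block, where 3.42% of all genes rose. The median of the 16 was 0.17, or 0.09 after the correction for G and C content. The lowest adjusted p-values were those of MT-TR and MT-TG, which flank MT-ND3 and whose sequences are given above with it. MT-TR had 66, 295 and 98 counts in control, 70, 480 and 146 in AMI-1 cells, and 131, 409 and 172 in AMI-5 cells. It rose by 0.64 ± 0.11 with AMI-5 (log2, SE; edgeR adjusted p = 0.00205), and in all 9 fits that left out 1 library, but not after the correction for G and C content (0.33, adjusted p = 0.0871). MT-TG had 88, 475 and 223 counts in control, 120, 553 and 300 in AMI-1 cells, and 216, 604 and 306 in AMI-5 cells. It rose by 0.53 ± 0.10 (edgeR adjusted p = 0.00285, or 0.0528 without AMI-5 replicate 2), and by 0.25 (adjusted p = 0.0421) with that correction. These tRNA rows hold 23.1% and 26.5% G and C and are short, so reads that run over from the neighbouring mRNA and reads of the tRNA itself cannot be told apart in a count per gene.

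The other 4 tRNA rows that rose with AMI-5 were MT-TH, MT-TP, MT-TT and MT-TW, by 0.38 to 0.89. Their calls were lost in 2 (MT-TP) to 7 (MT-TW) of the 9 fits that left out 1 library. The fit without AMI-5 replicate 1 was among them for each. MT-TW had only 10, 18 and 9 counts in control, 11, 18 and 17 in AMI-1 cells, and 25, 26 and 23 in AMI-5 cells. After the correction for G and C content 4 of the 16 rose, where 5.17% of all genes did. They were MT-TG, MT-TH, MT-TP and MT-TS2, and MT-TS2 had not passed without it (edgeR adjusted p = 0.0781). MT-TR, MT-TT and MT-TW did not pass with it. With AMI-1 the median of the 16 was 0.11. Only MT-TF rose with the block, by 1.28 ± 0.26 (edgeR adjusted p = 0.0325), where 0.241% of all genes rose. It rests on 174 counts in AMI-1 replicate 2 beside 15 and 29 in the others, and without that library its adjusted p was 0.438. It also lost the call without control replicate 2 (adjusted p = 0.520), control replicate 3 (0.0632) or AMI-5 replicate 1 (0.107). Without the block 0 of the 16 tRNA rows passed with either compound, by edgeR or DESeq2, and 0 had an unadjusted p under 0.05.

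**Figure D5:**
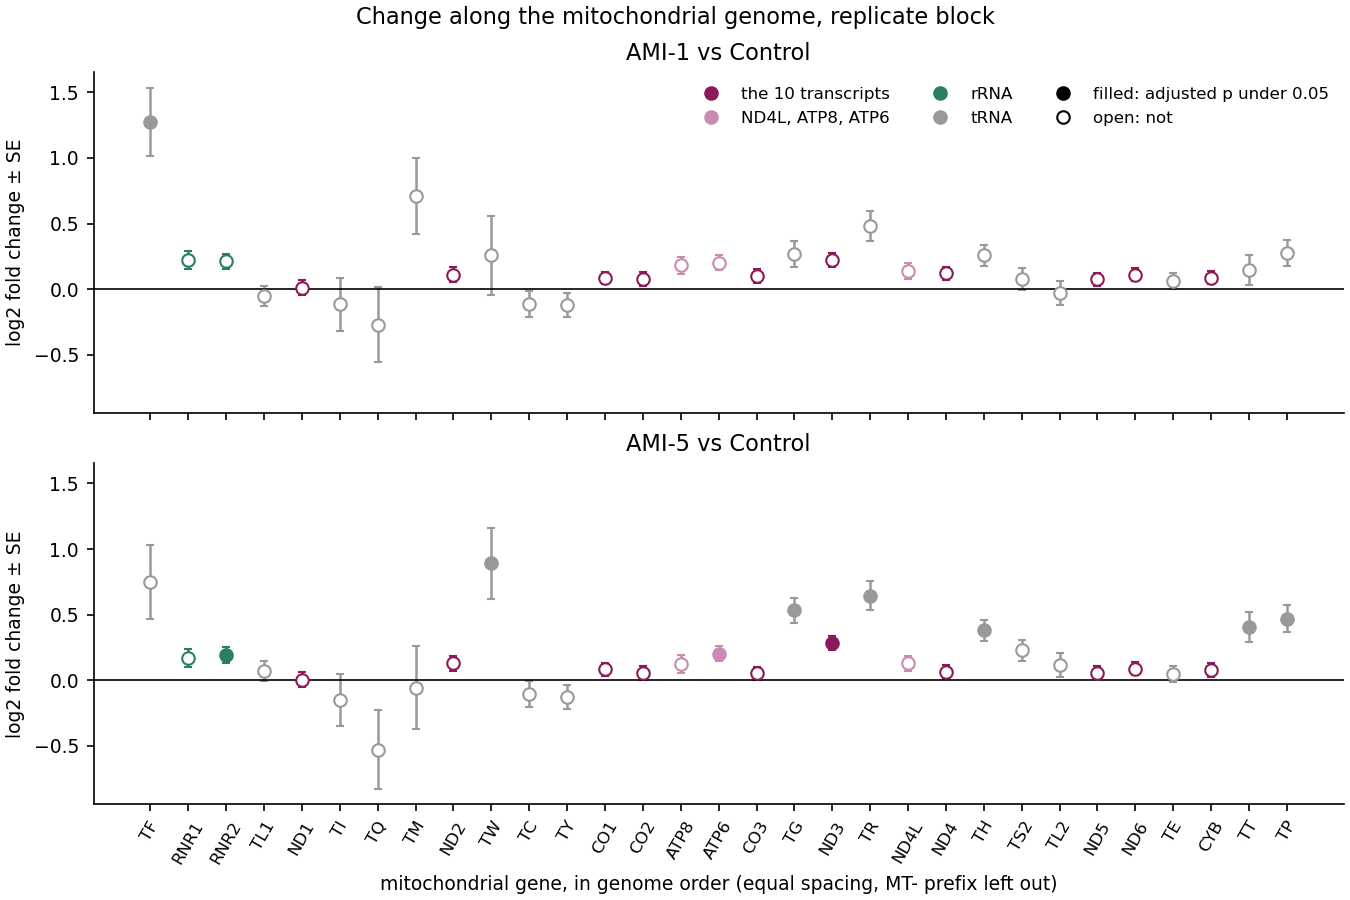
Blocked log2 fold change with its SE for the 31 mitochondrial rows in genome order at equal spacing, for AMI-1 (top) and AMI-5 (bottom) against control. Filled points passed an adjusted p of 0.05: only MT-TF for AMI-1, and for AMI-5 MT-ND3 with its neighbours MT-TG and MT-TR, 4 other tRNAs, MT-ATP6 and MT-RNR2.

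Nuclear copies of mitochondrial genes can share reads with the genes themselves, and the counts of both are uncertain to that extent. Of the 9 such rows in both tables, 6 resemble members. MTND6P4 and MTND4P12, both on chromosome 5 of GRCh38, are 95.02% and 95.8% identical to MT-ND6 and MT-ND4. Their counts equalled 8.33% to 10.9% of the MT-ND6 count and 2.44% to 3.34% of the MT-ND4 count in the 9 libraries. The stretch of 120 bases in which MTND6P4 and MT-ND6 differ most is given here from GENCODE release 29 (bases 281 to 400 of both transcripts, on the strand of the mRNA), with the 11 differing bases in capitals. The longest stretch they share without a difference is 91 bases, and the read length is not given in the sources used here.
MT-ND6: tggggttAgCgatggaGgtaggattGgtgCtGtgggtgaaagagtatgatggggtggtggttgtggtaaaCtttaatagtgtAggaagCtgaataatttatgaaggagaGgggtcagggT
MTND6P4: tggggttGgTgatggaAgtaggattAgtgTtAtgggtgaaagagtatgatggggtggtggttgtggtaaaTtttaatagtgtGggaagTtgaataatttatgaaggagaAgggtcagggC

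The copies split by replicate number. MTRNR2L8, which resembles MT-RNR2, had 468 to 1184 counts in the libraries numbered 1 and 2 to 7 in the 6 others. MTRNR2L1, MTND4P24, MTND6P3, MTND2P28 and MTND5P11 were likewise higher in the libraries numbered 1. Against the genes they resemble these are small: MTND2P28 reached at most 0.43% of the MT-ND2 count, MTND5P11 0.35% of MT-ND5 and MTND6P3 1.16% of MT-ND6. With the block, 3 of the 9 copies rose with AMI-5, where 3.42% of all genes rose. They were MTRNR2L8, MTND5P11 (0.57 ± 0.16) and MTATP8P2 (0.28 ± 0.08), the last 2 losing the call in 4 and 5 of the 9 fits that left out 1 library. MTRNR2L8 rose by 0.76 ± 0.15 (edgeR adjusted p = 0.00600) but stood at -0.03 without control replicate 1 (adjusted p = 0.983) and at -0.37 without AMI-5 replicate 1 (adjusted p = 0.801). The copies of members that carry most counts, MTND6P4 (0.09 ± 0.07, adjusted p = 0.422) and MTND4P12 (0.03 ± 0.06, adjusted p = 0.754), did not pass. No copy of MT-ND3 was among the 9.

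The nuclear genes that serve these transcripts were taken from lists. With AMI-1 and the block, where 0.421% of all genes passed, 0 passed in any of the lists for mitochondrial transcription, RNA processing, biogenesis and the nuclear subunits of complexes I, III and IV, where an unadjusted p under 0.05 was reached by 2, 0, 1, 2, 1 and 0 genes. The list medians for AMI-1 were -0.02, -0.07, -0.03, -0.01, -0.06 and 0.01 in the same order. Without the block 0 passed in any of them with either compound, by edgeR or DESeq2, and with AMI-5 only 1 regulator of biogenesis and 1 complex I gene had an unadjusted p under 0.05. With AMI-5, where 3.42% of all genes rose and 7.45% fell, 3 of 16 transcription and nucleoid genes fell and 0 rose, with a list median of -0.01 beside -0.005 over all genes. They were the RNA polymerase POLRMT (-0.35 ± 0.09, edgeR adjusted p = 0.0273), the ribosomal protein MRPL12 (-0.29 ± 0.07, adjusted p = 0.0182) and the DNA polymerase POLG (-0.22 ± 0.07, adjusted p = 0.0480). After the correction for G and C content their values were -0.11, -0.07 and -0.09 and none of these 3 passed, while TFB1M, an rRNA methyltransferase related to TFB2M, fell by 0.30 (edgeR adjusted p = 0.0208). In the blocked fit without that correction TFB1M was at -0.24 ± 0.10 (adjusted p = 0.122). Each call was also lost without control replicate 1, control replicate 3, AMI-5 replicate 1 or AMI-5 replicate 2, with adjusted p up to 0.230, 0.164 and 0.273. TFAM stood at 0.10 ± 0.08 and TFB2M at 0.02 ± 0.09 with AMI-5, and neither passed.

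Of 21 RNA processing and stability genes, 1 rose and 1 fell with AMI-5, where 3.42% of all genes rose and 7.45% fell. The list median was -0.007. FASTK, of a family of mitochondrial RNA-binding proteins and known for its part in the level of MT-ND6, fell by 0.36 ± 0.07 (edgeR adjusted p = 0.00492, and 0.00651 after the correction for G and C content), while MT-ND6 itself stood at 0.09 ± 0.05. The call of FASTK was lost without control replicate 3 (adjusted p = 0.0706), AMI-5 replicate 1 (0.0820) or AMI-5 replicate 2 (0.0555). FASTKD1, of the same family, rose by 0.30 ± 0.08 (adjusted p = 0.0247). It did not pass after the correction for G and C content (adjusted p = 0.0804), and lost the call in 5 of the 9 fits that left out 1 library, with adjusted p up to 0.208. LRPPRC (0.07 ± 0.06) and SLIRP (-0.06 ± 0.08) did not pass. Among 6 regulators of biogenesis, with a median of -0.09, 1 fell and 0 rose: PPRC1, a coactivator of the PGC-1 family, fell by 0.35 ± 0.06 (edgeR adjusted p = 0.00217), and in all 9 fits that left out 1 library. With AMI-1 it stood at -0.22 ± 0.06 (edgeR adjusted p = 0.162), and at -0.19 and past the threshold after the correction for G and C content (adjusted p = 0.0072).

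In complexes I and III the median of the nuclear partners lay below 0, where the fitted changes of all mitochondrial members lay above it with all 9 libraries. With AMI-5 and the block, 3.42% of all genes rose and 7.45% fell. Of 38 nuclear complex I genes 6 fell and 0 rose (median -0.09), and 2 of 9 of complex III fell (median -0.08). Of 10 of complex IV 0 passed (median 0.03). After the correction for G and C content 7 of 38 complex I genes fell and 0 rose (median -0.07). Of 9 of complex III 2 fell and 0 rose (median -0.06). The complex IV median was -0.02, and 1 of its genes rose and 1 fell. With that correction 5.17% of all genes rose and 8% fell. The values that follow are without that correction. NDUFS7, which bears an iron-sulphur cluster, was at -0.36 ± 0.08 (edgeR adjusted p = 0.0124) and NDUFS6 at -0.31 ± 0.07 (adjusted p = 0.0111). CYC1, the cytochrome c1 of complex III that works beside MT-CYB, fell by 0.41 ± 0.06 (edgeR adjusted p = 0.00109), and in all 9 fits that left out 1 library. MT-CYB stood at 0.08 ± 0.05. UQCRC1, a core protein of complex III, fell by 0.20 (edgeR adjusted p = 0.0335) and lost the call in 6 of the 9 such fits. The calls of the 6 complex I genes were lost in 3 to 7 of them, each without control replicate 3 and without AMI-5 replicate 2, with adjusted p up to 0.176 for NDUFS7 and 0.161 for NDUFS6. No test of the difference between mitochondrial and nuclear subunits was made.

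Among 12736 nuclear genes with a mean of at least 5 CPM, those whose log2 level followed the summed level of the 10 most closely over the 9 libraries were CAPRIN2 (r = 0.994), MTND6P4 (0.993), CYP27C1 (0.990), GLT8D1 (0.988) and BBS9 (0.984). These are descriptions over libraries that share replicate numbers, which carry most of the spread of the 10, and MTND6P4 is the copy of MT-ND6 described above.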

How the data were processed

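RNA from 9 HMEC-1 samples (3 control, 3 AMI-1, 3 AMI-5) was poly-A selected and sequenced. Whole-number read counts per gene, as deposited by the authors in 2 tables, were the starting point. The submitters' processing notes name BWA, bedtools and the hg19 build. For their versions, the annotation, the read length and the strand setting, the answer is not given in the sources used here. The smallest mean count in either deposited table is 10. Mitochondrial rows were matched by gene identifier to GENCODE release 29, which is on GRCh38, so no positions are printed.

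Counts of the 18293 shared genes were fitted with edgeR 4.0.16 in R 4.3.3 (TMM scaling, filterByExpr, quasi-likelihood test, Benjamini-Hochberg over 18284 genes, threshold 0.05). The same fit was made with the replicate number as a block. The numbers were taken to pair the libraries from the correlations above. All 9 of the same number (0.43 to 0.87) exceeded those of different numbers (-0.80 to 0.20). The common coefficient of variation was 23.7% without the block and 5.64% with it. DESeq2 1.42.0 was an alternative. The correction for G and C content used a lowess curve (span 0.3) per library as an offset, and 95.7% of tested genes had a value. Single values per library were tested by exact permutation (SciPy 1.17.1), and copies were aligned with Biopython 1.88. The scripts were tested on simulated data. Counting error is small at the counts of the 10 members, but not in rows with few counts such as MT-TF and MT-TW. Intervals cover the spread between these libraries. The rule for named genes was to give all 10 members, up to 3 genes per nuclear list and comparison with the lowest adjusted p in the blocked fit, and the 5 nuclear genes most alike in level. TFAM, TFB1M, TFB2M, LRPPRC, SLIRP and the tRNA and copy rows that passed were named in addition. A gene that this rule would name is not reported here. The members and lists were chosen with earlier results of these data known.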

Additional observations from a re-analysis of the deposited data

How the results depend on the processing

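With the replicate number left out, the settings for scaling, filter, groups in the fit and DESeq2 gave 0 of the 10 transcripts called in each comparison. For AMI-5 against control the count was 1 with the replicate block, 1 with the block and scaling on nuclear genes alone, and 1 with the block and the G and C correction. For AMI-1 it was 1 with the block and the G and C correction. Fits that left out 1 library, with or without the block, called 0 to 1 for AMI-1 and 0 to 2 for AMI-5. The replicate block changed the call of no other member. The library whose absence lost or made each call is named with MT-ND3 and MT-ND2 above. For AMI-1 against control, the log2 changes that turned sign in such a fit ran from -0.16 to 0.13 for MT-ND1, from -0.13 to 0.35 for MT-ND2, from -0.053 to 0.51 for MT-ND3, from -0.10 to 0.33 for MT-ND4, from -0.18 to 0.30 for MT-ND5, from -0.25 to 0.46 for MT-ND6, from -0.14 to 0.29 for MT-CO1, from -0.075 to 0.19 for MT-CO2, from -0.056 to 0.22 for MT-CO3, and from -0.060 to 0.21 for MT-CYB. For AMI-5 against control, the log2 changes that turned sign in such a fit ran from -0.10 to 0.10 for MT-ND1, from -0.092 to 0.36 for MT-ND2, from -0.11 to 0.27 for MT-ND4, from -0.16 to 0.27 for MT-ND5, from -0.24 to 0.43 for MT-ND6, from -0.13 to 0.29 for MT-CO1, from -0.062 to 0.17 for MT-CO2, from -0.034 to 0.15 for MT-CO3, and from -0.011 to 0.19 for MT-CYB. For AMI-5 against AMI-1, the log2 changes that turned sign in such a fit ran from -0.12 to 0.16 for MT-ND1, from -0.21 to 0.26 for MT-ND2, from -0.19 to 0.32 for MT-ND3, from -0.24 to 0.16 for MT-ND4, from -0.24 to 0.24 for MT-ND5, from -0.36 to 0.33 for MT-ND6, from -0.22 to 0.23 for MT-CO1, from -0.14 to 0.13 for MT-CO2, from -0.14 to 0.11 for MT-CO3, and from -0.10 to 0.14 for MT-CYB. All of these missed the threshold where the sign turned, and 30 of these 91 turns came with the block in the fit. Without the block, leaving out 1 library of a compared group makes the replicate numbers unequal between the groups. With library totals alone, the difference of AMI-5 from AMI-1 turned to 0.024 for MT-ND1, 0.014 for MT-ND5, 0.0022 for MT-ND6, 0.032 for MT-CO1, 0.015 for MT-CO2 and 0.022 for MT-CYB, and with the block and the G and C correction to -0.017 for MT-ND2; the cause was not tested. Library totals alone also moved the median of all genes for AMI-5 against control from -0.0057 to 0.053. The summed share moved by less than 1 SD between replicates under each setting run, but its differences changed sign when 1 library was left out: they ran from -0.146 to 0.459 points for AMI-1, from -0.062 to 0.475 for AMI-5 and from -0.252 to 0.351 between the compounds. The difference in log2 of the ratio of complex I to complex IV ran from -0.034 to 0.059, from -0.033 to 0.056 and from -0.040 to 0.039 in these fits. Pairing by replicate number cannot change these mean differences when all pairs are complete, so it is no check on them.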
